A study of Homo sapiens with 6 samples.

Results

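The genes described here code for histones, for histone variants and for the proteins that chaperone, deposit or regulate histones. They were taken from the authors' comparison table of induced against uninduced cells by gene name: every HIST gene, every gene whose name starts with H2AF, H1F or H3F3, and 15 named chaperones and regulators. The rule found 39 of 13008 genes, and the rule uses names, not measured changes. By role they were 12 core histone genes, 2 linker histone genes, 8 variant genes, 7 genes of replication-coupled assembly, 3 of H3.3 deposition, 2 of the FACT complex and 3 that act on histone gene expression. The remaining 2 were an antisense RNA, H1FX-AS1, and a pseudogene, H3F3AP4. CASP8AP2 is counted with the coding members, although the authors label its biotype as processed transcript.

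The libraries were of polyadenylated RNA from Tet-FLAG-FOXM1c-hTERT-RPE1, a telomerase-immortalised human retinal pigment epithelial line carrying a tetracycline-inducible FLAG-tagged FOXM1c transgene. FOXM1 is a forkhead transcription factor known for driving genes of the G2 and M phases of the cell cycle. In the 3 dox libraries, whose genotype is labelled FOXM1 overexpression, cells had received doxycycline at 1 µg/mL, renewed every 24 h, for 48 h. The 3 no dox libraries came from the same named line without treatment, although their genotype is labelled WT. Both groups therefore share the inserted construct, and a doxycycline-treated line without the transgene was not analysed here, so effects of the drug and of FOXM1c cannot be told apart. Neither whether the line is 1 clone nor whether replicates were separate cultures is stated, so p-values measure the spread between these libraries, which may be technical.

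FOXM1 itself was at 65289, 66830 and 74976 normalised counts in the dox libraries, against 5009, 4383 and 4292 in the no dox libraries. Normalised counts are the authors' depth-equalised read counts. Libraries held 25148936 to 49882123 reads in the dox group and 15094498 to 32280300 in the no dox group. The keratins KRT8 and KRT18 and the mesenchymal genes VIM, FN1, COL1A1 and THY1 were present in all libraries. COL1A2, also listed as mesenchymal, was at 0.0254 FPKM or less. MITF, a factor of pigment cells, was at 2.06 to 2.23 FPKM. The other listed genes of retinal pigment epithelium, RPE65, BEST1, TYR, TYRP1, PMEL, RLBP1, LRAT and SERPINF1, were at 0.220 FPKM or less, and TTR was at 0. Of the other epithelial markers, KRT19 and CDH1 were near 0 and EPCAM was at 0.

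Histones package DNA into nucleosomes, each an octamer of the core histones H2A, H2B, H3 and H4, while the linker histone H1 binds the DNA between them. Most core histones are made in S phase from clustered, intronless genes whose mRNAs end in a conserved stem-loop instead of a poly(A) tail. The stem-loop is bound by SLBP, which is needed for 3′ end formation, translation and stability of these mRNAs. Variants such as H2A.Z and H3.3 come from solitary genes with ordinary polyadenylated mRNAs and can be deposited outside S phase. Chaperones then hand histones to DNA: CAF-1 and ASF1 at replication forks, HIRA and the DAXX-ATRX pair for H3.3, and FACT at transcribed and replicating chromatin.

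Stem-loop sequences are shown because poly(A) selection passes over mRNAs that end at the stem-loop. A stem-loop of 16 bases was found in annotated transcripts of 10 members in GENCODE release 29, of which 9 were HIST genes and the last was H2AFX; among all 19684 coding genes, 66 held one (0.335%). These 10 members carried 5 forms of it. One gene of each form is shown, from a transcript sequence as DNA letters 5′ to 3′, with the stem-loop in capitals and 5 bases on each side.
HIST1H2AC: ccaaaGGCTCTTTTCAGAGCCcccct
HIST1H2AG: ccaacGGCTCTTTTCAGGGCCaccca
HIST1H2BC: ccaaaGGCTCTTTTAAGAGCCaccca
HIST1H4H: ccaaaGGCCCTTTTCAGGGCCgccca
H2AFX: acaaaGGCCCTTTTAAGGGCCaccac
The form of HIST1H2AC was shared by HIST1H2BN, HIST1H3H, HIST2H2BE and HIST3H2A, and that of HIST1H2BC by HIST1H2BD. The stem-loop lay in 16 annotated transcripts, which ran on past it by 5 to 1761 bases. A transcript of HIST1H4H ended 18 bases after it, while others of this gene ran on for up to 1655 bases. The 2 HIST1H2BN transcripts ended 5 and 377 bases after a stem-loop. The bases on both sides of it differed between them, so these were not the same stem-loop. HIST1H2AC transcripts ran on by 1114 to 1128 bases, HIST1H2AG by 1761, HIST1H2BC by 116 and H2AFX by 821 to 1044. Which of these transcripts were counted was not tested. No stem-loop was found in the listed transcripts of HIST1H1C, HIST1H2BJ, HIST1H2BK or HIST1H4C. This does not show that these genes lack one. For HIST1H1C and HIST1H2BK the annotated exons covered 642 and 381 bases, against 732 and 1201 in the authors' widths. A stem-loop beyond the annotated end could not be found.

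The comparison asks how FOXM1c induction changed the transcripts of this family. Without a replicate block, 0 of the 39 members passed an adjusted p of 0.05 (limma, Benjamini-Hochberg over all 13153 tested genes), where 0.540% of all tested genes passed. At an unadjusted p under 0.05 there were 6 of 39 members, where 13.0% of all genes lay. edgeR's quasi-likelihood test also called 0 members, where it called 0.515% of genes. It put 5 of 39 members at an unadjusted p under 0.05, where 1663 of 13008 genes lay. DESeq2 called 2 members, CHAF1B and H2AFV, both lower in dox, where it called 4.01% of genes. In bulk RNA, fewer cells expressing a gene and less RNA per cell cannot be told apart. Libraries with the same replicate number deviated together, so values from a fit blocked on that number are given beside each result. With the block 10 of 39 members passed (25.6%), 3 higher and 7 lower in dox, against 22.5% of all tested genes (10.2% higher and 12.4% lower). By edgeR with the block 12 members passed, all 10 among them, against 23.4% of genes. The dox and no dox libraries did not overlap for 10 members (25.6%), 3 above and 7 below, against 19.1% of all tested genes (9.03% above, which was 1188 genes, with 1319 genes below). Both shares lay a few percentage points above those of all genes, and no test of that difference was made.

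The 3 members higher in dox with the block were HIST1H2BJ, HIST1H1C and ATRX. The 7 lower ones were CHAF1B, H2AFV, NASP, HIST1H2AC, H2AFZ, SSRP1 and SLBP. Each of these 10 went the same way in all 3 same-numbered pairs, and in 7 of them the groups did not overlap. The block calls rested in part on single replicates. Without replicate 2, CHAF1B, H2AFV, NASP and HIST1H1C still passed, while the adjusted p was 0.0531 for ATRX, 0.0707 for H2AFZ, 0.302 for HIST1H2AC, 0.0667 for HIST1H2BJ, 0.0844 for SLBP and 0.0614 for SSRP1. Without replicate 3 it was 0.0842 for HIST1H2AC and 0.0880 for SLBP, and the other 8 passed. Without replicate 1 all 10 passed, with smaller log2 changes of 0.12 for ATRX and -0.14 for H2AFZ; HIST1H2AC was at -0.20 without replicate 2. The median log2 change was -0.07 over all 39 members and -0.0022 over all tested genes. By role the medians were -0.03 for core histones, 0.16 for linker histones, -0.11 for variants, -0.09 for replication-coupled assembly, -0.06 for H3.3 deposition, -0.14 for FACT and 0.02 for the expression factors. In the authors' deposited table, 203 genes (1.56%) were marked as changed, and CHAF1B was the only marked member, with a log2 fold change of -0.59 and an adjusted p of 0.00605.

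**Figure D1:**
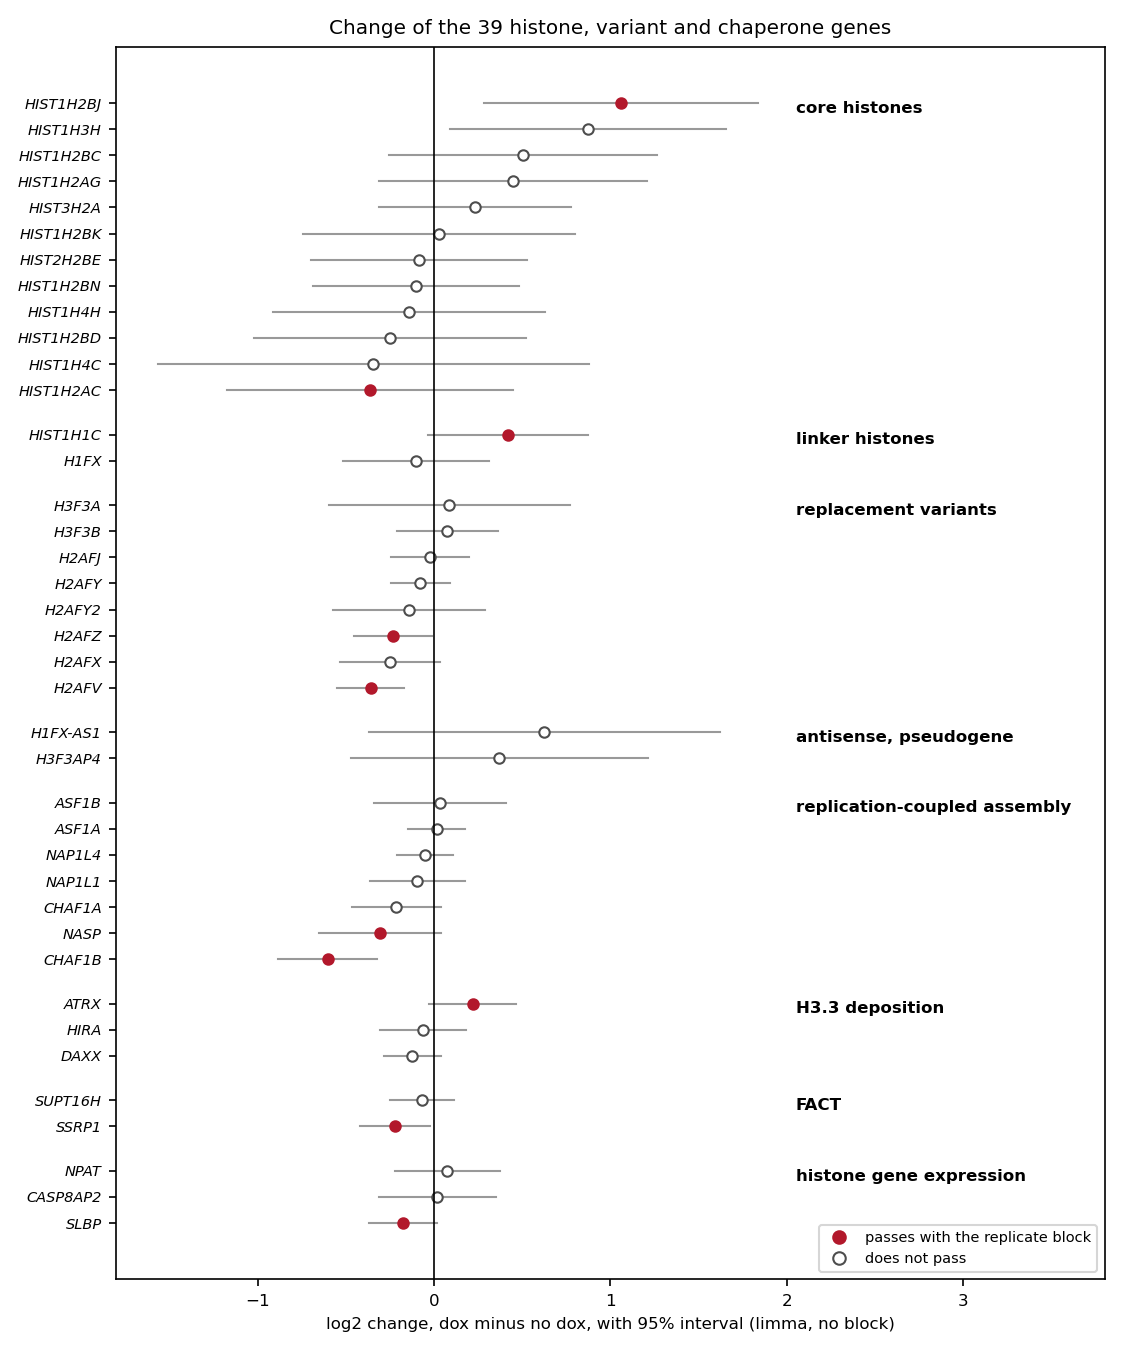
Log2 change, dox minus no dox, of the 39 members grouped by role (limma on log2 of normalised count plus 1, no block), with 95% intervals; filled points passed with the replicate block. Most intervals span 0; HIST1H2BJ lies farthest to the right and CHAF1B farthest to the left.

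Replication-coupled assembly was led by CHAF1B, the middle subunit of CAF-1, which deposits newly made H3-H4 behind the replication fork. CHAF1B (ENSG00000159259, chromosome 21, 37757676 to 37791313 in hg19) was at 510.3, 663.5 and 596.0 normalised counts in dox, against 945.0, 935.8 and 799.3 in no dox. All 3 dox libraries lay below all 3 no dox libraries. Its log2 change was -0.60 (SE 0.12), with an adjusted p of 0.0827 without the block and 0.00129 with it. CHAF1B overlaps MORC3 on the same strand, so reads of the shared stretch are uncertain.

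NASP, the chaperone that holds a reserve of soluble H3-H4, was at 1569, 2290 and 1737 in dox, against 2059, 2586 and 2217 in no dox. The groups overlapped, but each dox library was below its same-numbered no dox library. This gave a log2 change of -0.31 (SE 0.15), with an adjusted p of 0.452 without the block and 0.00336 with it. CHAF1A, the large CAF-1 subunit, had a log2 change of -0.21 with an adjusted p of 0.0525 under the block and of 0.0448 by edgeR with the block. ASF1A and ASF1B, which pass H3-H4 on to CAF-1 and HIRA, had log2 changes of 0.02 and 0.03. For ASF1B the dox libraries were at 1360, 2064 and 2021 and the no dox libraries at 1682, 1899 and 1651, so the groups overlapped. The H2A-H2B chaperones NAP1L1 and NAP1L4 had log2 changes of -0.09 and -0.05. NAP1L1, the member with the most reads (15240 to 43472 per library), did not pass with the block (adjusted p 0.184). Under the block it was at -0.14 without replicate 1 (adjusted p 0.0102), -0.06 without replicate 2 (0.658) and -0.09 without replicate 3 (0.456).

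The promoter window of CHAF1B is shown because this gene had the smallest p among the members without the block. It covers 250 bases before to 50 after the gene start in RefSeq (GRCh38.p14, chr21:36385142-36385441, plus strand), and capitals mark an E2F-like motif.
CHAF1B: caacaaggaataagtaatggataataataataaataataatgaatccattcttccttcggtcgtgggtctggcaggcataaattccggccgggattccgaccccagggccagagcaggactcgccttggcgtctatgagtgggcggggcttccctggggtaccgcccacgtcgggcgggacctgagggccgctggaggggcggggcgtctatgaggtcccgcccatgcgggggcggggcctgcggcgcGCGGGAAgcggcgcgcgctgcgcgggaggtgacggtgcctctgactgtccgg
The motifs were searched on both strands. They were the CHR element, spelled TTTGAA or spelled TTCGAA; the CCAAT box; the TATA box, spelled TATAAA; the E2F-like motif, spelled GCGGGAA or spelled GCGCGAA; and the forkhead core, spelled GTAAACA. Where motifs overlap or adjoin, the capitals form 1 run. For 33 members 42 windows were matched, since a gene can have several annotated starts. The E2F-like motif was in 6 of 16 windows of assembly and expression factor genes, against 8.54% of all 35116 windows. The forkhead core was in 0 of the 42 windows, against 3.42% of all windows. A match is a description of the letters and does not show binding.

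The H3.3 deposition genes differed in direction. ATRX, the remodeller that partners DAXX at telomeres and pericentric repeats, was at 4062, 4312 and 4161 in dox, against 3050, 3930 and 3853 in no dox. The groups did not overlap, and no dox replicate 1 was well below the other no dox libraries. For ATRX the log2 change was 0.22 (SE 0.11), with an adjusted p of 0.450 without the block and 0.0260 with it. DAXX, the H3.3 chaperone of the pair, had 2176, 2244 and 2237 in dox against 2540, 2376 and 2342 in no dox, all dox libraries being lower. Its log2 change of -0.12 did not pass with the block (adjusted p 0.0952). HIRA, which deposits H3.3 at genes, had a log2 change of -0.06 and overlaps MRPL40 and C22orf39.

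SSRP1, the HMG-box subunit of FACT, was at 5672, 6536 and 6216 in dox, against 7091, 7595 and 6774 in no dox, again without overlap. SSRP1 had a log2 change of -0.22 (SE 0.09), with an adjusted p of 0.332 without the block and 0.00884 with it. SUPT16H, the other FACT subunit, had a log2 change of -0.07, and its adjusted p with the block was 0.267. SLBP, the stem-loop binding protein, was at 1819, 2146 and 2004 in dox, against 2179, 2328 and 2234 in no dox. Each dox library was lower than all no dox libraries, and the log2 change was -0.18 (SE 0.08), with an adjusted p of 0.428 without the block and 0.0239 with it. NPAT, the cyclin E-CDK2 substrate that activates histone genes, had a log2 change of 0.08, and CASP8AP2, known as FLASH and needed for histone mRNA 3′ processing, one of 0.02; NPAT overlaps ATM on the other strand.

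**Figure D2:**
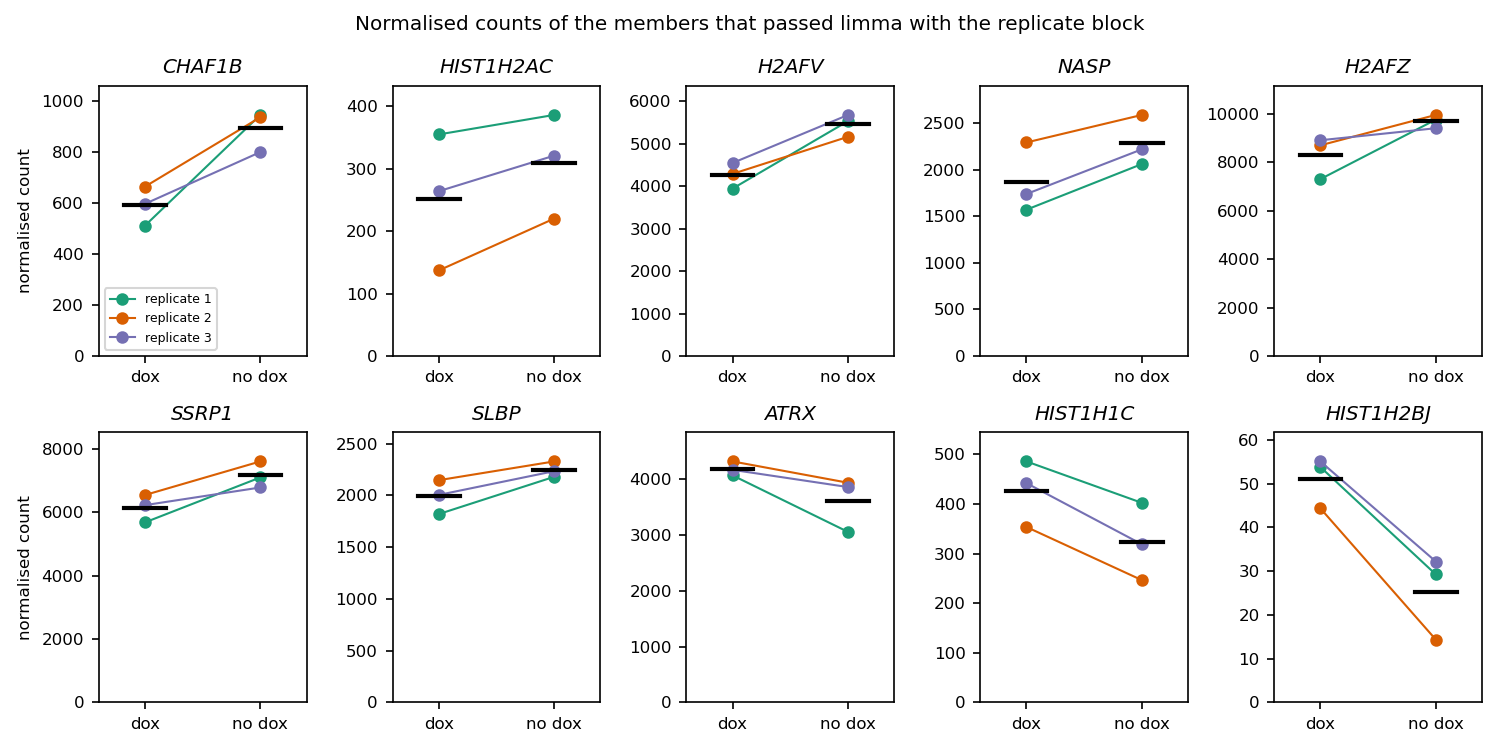
Normalised counts per library (linear axis from 0) of members that passed with the replicate block, dox left of no dox, with lines joining libraries of the same replicate number and black bars at group means. All 3 lines run the same way in each panel, while levels of the groups overlap in some.

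Of the 8 variant genes, both H2A.Z genes were lower in dox with the block. H2AFV codes for H2A.Z.2, and was at 3946, 4293 and 4550 in dox, against 5539, 5168 and 5683 in no dox. The groups lay apart, at 4263 ± 303 in dox and 5463 ± 266 in no dox (SD, n = 3 each). The log2 change was -0.36 (SE 0.08), with an adjusted p of 0.106 without the block and 0.00103 with it. H2AFZ codes for H2A.Z.1, and was at 7309, 8706 and 8916 in dox, against 9768, 9963 and 9414 in no dox. All dox libraries were below all no dox libraries; the log2 change was -0.23 (SE 0.10), with an adjusted p of 0.362 without the block and 0.0214 with it.

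Both H2A.Z promoter windows are shown because these genes code for nearly the same protein and went the same way; capitals mark any of the motifs listed above, and both windows are on the minus strand of GRCh38.p14 (chr4:99950226-99950525 for H2AFZ and chr7:44848038-44848337 for H2AFV).
H2AFZ: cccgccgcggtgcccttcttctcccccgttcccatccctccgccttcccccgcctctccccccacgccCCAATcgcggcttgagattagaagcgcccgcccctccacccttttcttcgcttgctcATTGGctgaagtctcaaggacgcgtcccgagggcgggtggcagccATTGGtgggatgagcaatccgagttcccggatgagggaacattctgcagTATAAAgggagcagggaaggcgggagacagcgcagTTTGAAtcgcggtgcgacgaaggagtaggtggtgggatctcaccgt
H2AFV: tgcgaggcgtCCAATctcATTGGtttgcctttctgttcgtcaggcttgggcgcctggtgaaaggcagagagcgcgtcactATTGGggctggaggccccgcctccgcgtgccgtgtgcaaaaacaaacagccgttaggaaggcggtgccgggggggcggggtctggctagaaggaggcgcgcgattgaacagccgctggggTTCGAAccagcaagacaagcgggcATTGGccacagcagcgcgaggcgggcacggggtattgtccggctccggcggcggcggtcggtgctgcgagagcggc
Both windows held CCAAT and a CHR element. CCAAT was in 9 of 12 windows of variant genes against 34.6% of all windows, and the CHR element in 3 of 12 against 16.4%. H2AFY and H3F3A gave multiple windows.

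H2AFX, the H2A variant phosphorylated at DNA breaks, was at 3902, 4984 and 4452 in dox, against 6037, 5098 and 4717 in no dox. The groups overlapped, and no dox replicate 1 stood highest. The log2 change of -0.25 did not pass with the block (adjusted p 0.0914). Leaving out replicate 1, 2 or 3 under the block gave -0.06, -0.36 and -0.33, with adjusted p of 0.316, 0.0448 and 0.0692. The H3.3 genes H3F3A and H3F3B had log2 changes of 0.09 and 0.08, neither passing with the block (adjusted p 0.205 and 0.276). H3F3A was at 1733, 1815 and 3244 in dox and at 1593, 1792 and 2978 in no dox, so replicate 3 stood high in both groups by more than the groups differed. The macroH2A genes H2AFY and H2AFY2 and the H2A.J gene H2AFJ had log2 changes of -0.08, -0.14 and -0.02. The pseudogene H3F3AP4, at 30.4, 29.2 and 59.6 in dox and 26.3, 22.4 and 40.5 in no dox, had the same high replicate 3; the sources used here do not say how reads shared with H3F3A were assigned.

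The 13 HIST genes comprised 11 on chromosome 6 and 2 on chromosome 1, with 8 to 924 reads per library, against 67 to 43472 for the 24 other coding members. Their median log2 change was 0.03. Replicates differed more than in other genes: the median within-group SD was 0.41 on the log2 scale, against 0.15 over all tested genes and 0.23 over 4783 genes in the same range of levels. Levels were not matched gene by gene within that range, so the part of low counts in this spread was not tested. Replicate 2 was the lowest library for 9 of 13 HIST genes in dox and for 10 of 13 in no dox. As a measure of RNA without a tail, 13 of 20 listed small noncoding RNAs were found, 3 of them at 0. Those not found included RN7SK, RN7SL1, RN7SL2 and RPPH1, so the measure lacks them. The 13 found summed to 7.96, 12.9 and 2.99 FPKM in dox, against 5.01, 6.96 and 12.2 FPKM in no dox. Among the 13 were RMRP, at 0.822 to 6.59 FPKM per library, and RNU4-2, at 0.282 to 3.76 FPKM. The part of such RNAs in the histone values was not tested.

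HIST1H2BJ, a core H2B gene, had the largest change of the members that passed. It was at 53.8, 44.4 and 55.1 normalised counts in dox, against 29.3, 14.4 and 32.2 in no dox, from 16 to 77 reads per library. All dox libraries were higher, and replicate 2 was lowest in both groups. Its change on the log2 scale was 1.06 (SE 0.33), with an adjusted p of 0.224 without the block and 0.00900 with it. HIST1H3H, an H3 gene with 8 to 67 reads, was at 50.1, 22.7 and 34.5 in dox, against 16.9, 20.1 and 17.5 in no dox. Its log2 change was 0.87, with an adjusted p of 0.332 without the block, 0.0542 with it and 0.0402 by edgeR with the block. Under the block it was 0.55 without replicate 1 (adjusted p 0.238), 1.23 without replicate 2 (0.0298) and 0.84 without replicate 3 (0.141).

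HIST1H2AC, an H2A gene, went the other way, at 354.9, 136.9 and 263.9 in dox, against 386.2, 220.1 and 321.0 in no dox. The groups overlapped, with each dox library below its numbered partner. The log2 change was -0.36 (SE 0.35), with an adjusted p of 0.765 without the block and 0.0430 with it; leaving out dox replicate 2 gave a log2 change of 0.024. Its divergent neighbour HIST1H2BC, 218 bases away, was at 29.8, 29.4 and 36.9 in dox and 30.3, 14.5 and 24.4 in no dox, a log2 change of 0.51 that did not pass. The second divergent pair, HIST1H2BJ and HIST1H2AG, lie 290 bases apart. HIST1H2AG was at 84.4, 69.6 and 94.0 in dox and 85.3, 35.3 and 71.2 in no dox, a log2 change of 0.45 that did not pass (adjusted p 0.126 with the block).

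The promoter windows of the plus-strand genes are shown because each divergent pair shares most of one: 255 bases for HIST1H2AC with HIST1H2BC, and 253 for HIST1H2AG with HIST1H2BJ. They are chr6:26123922-26124221 and chr6:27132793-27133092 in GRCh38.p14, with the same motifs in capitals.
HIST1H2AC: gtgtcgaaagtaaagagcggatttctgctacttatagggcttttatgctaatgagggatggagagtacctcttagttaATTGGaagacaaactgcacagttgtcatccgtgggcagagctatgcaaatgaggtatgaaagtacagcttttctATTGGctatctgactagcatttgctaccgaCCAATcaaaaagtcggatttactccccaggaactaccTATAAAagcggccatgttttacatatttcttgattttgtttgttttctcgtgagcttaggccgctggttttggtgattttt
HIST1H2AG: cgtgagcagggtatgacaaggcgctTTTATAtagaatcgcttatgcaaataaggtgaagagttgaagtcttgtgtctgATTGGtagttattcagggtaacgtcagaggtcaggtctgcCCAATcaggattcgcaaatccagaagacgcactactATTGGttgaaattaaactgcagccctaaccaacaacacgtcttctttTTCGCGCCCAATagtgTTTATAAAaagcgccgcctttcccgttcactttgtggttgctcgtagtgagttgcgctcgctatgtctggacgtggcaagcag
Both windows held CCAAT and TATAAA. Among the 13 HIST windows matched, 12 held CCAAT and 9 TATAAA, against 34.6% and 11.5% of all windows. These windows do not stand for separate genes. HIST1H2BD and HIST1H2BK were counted with repeated, nearly identical windows, and HIST1H3H and HIST1H4C had none. In the divergent pairs the same motif letters can count for both genes.

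HIST1H2BK, the HIST gene with the most reads, was at 649.8, 291.9 and 555.6 in dox and at 551.6, 314.0 and 572.6 in no dox, a log2 change of 0.03. HIST3H2A was at 125.8, 189.3 and 200.5 in dox and at 115.2, 138.7 and 183.7 in no dox, a log2 change of 0.23 that lay between 0.08 and 0.44 with 1 library left out. HIST1H4C, at 24.4, 51.6 and 101.7 in dox and 37.6, 83.1 and 85.4 in no dox, differed more between replicates than between groups. The other core genes HIST2H2BE, HIST1H2BD, HIST1H2BN and HIST1H4H had log2 changes of -0.09, -0.25, -0.10 and -0.14, none passing with the block. Near-identical histone copies make the assignment of reads between these genes uncertain.

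**Figure D3:**
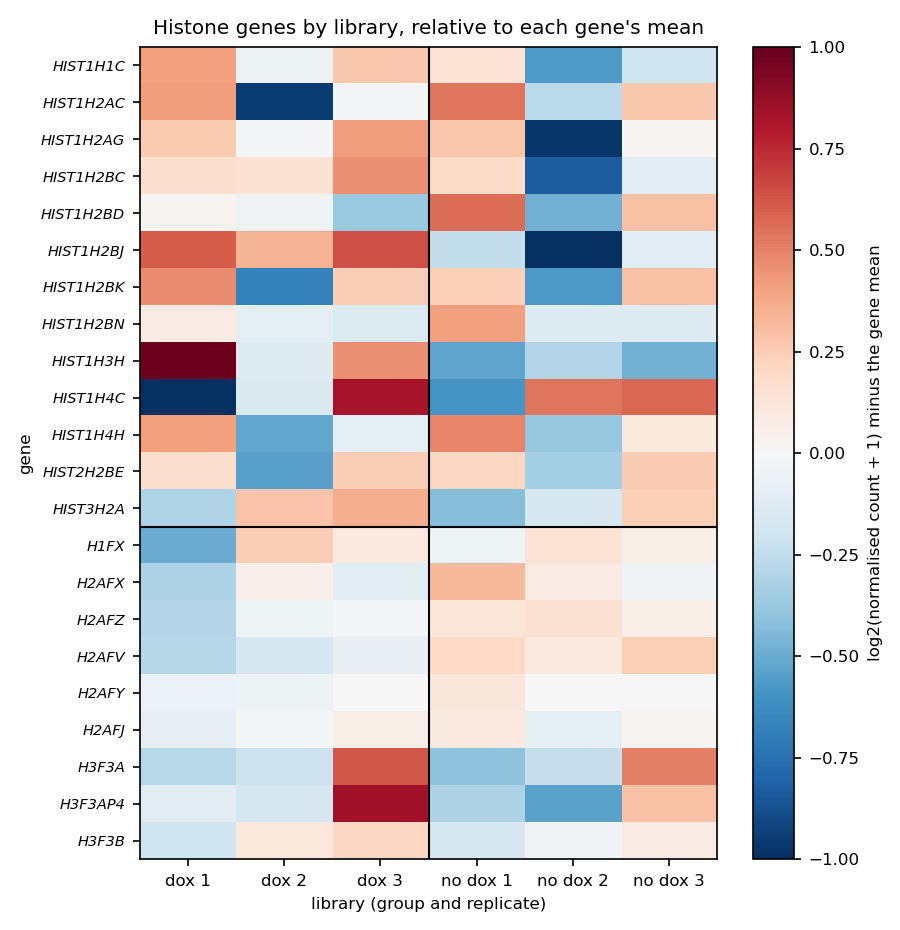
Log2 of normalised count plus 1 minus the gene's mean over 6 libraries, as colour (scale ends at -1 and 1), for the 13 HIST genes (upper block) and other histone genes (lower block), dox left of no dox. Replicate 2 is the lowest library for 9 of 13 genes in dox and for 10 of 13 in no dox.

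Of the linker histones, HIST1H1C, which codes for H1.2, was at 485.6, 353.5 and 441.9 in dox, against 402.1, 246.3 and 318.6 in no dox. The groups overlapped, while each dox library was above its numbered partner. The log2 change was 0.42 (SE 0.20), with an adjusted p of 0.428 without the block and 0.00527 with it; without no dox replicate 2 the change in the unblocked fit was 0.24. H1FX, which codes for the linker histone H1X, was at 2312, 3879 and 3497 in dox and at 3165, 3586 and 3422 in no dox, a log2 change of -0.10. H1FX-AS1, which overlaps H1FX on the other strand, was at 23.3, 78.6 and 59.8 in dox and at 34.0, 32.3 and 26.5 in no dox, a log2 change of 0.63 that did not pass with the block. The sources used here give no strand setting for the counting, so reads of this pair cannot be told apart. Under the block, H1FX-AS1 was at 1.20 without replicate 1 (adjusted p 0.000247), 0.31 without replicate 2 (0.663) and 0.37 without replicate 3 (0.554).

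Levels between genes were compared as CPM (depth-scaled read counts) per kilobase of exon, for the 38 members with a GENCODE 29 length. H2AFZ was highest, at 125 in dox and 144 in no dox, followed by H2AFX at 95.9 in dox and 112 in no dox. H1FX was at 74.7 in dox and 76.8 in no dox, and H3F3B at 67.1 in dox and 62.1 in no dox. HIST1H2BN was lowest, at 0.212 in dox and 0.228 in no dox. Exon lengths pool all annotated transcripts of a gene, so ranks depend on them. For HIST1H2BN the pooled length was 5477 bases, while its transcripts with a stem-loop had 432 and 1723 bases. HIST1H2BK came out highest of the core genes, but its annotated length of 381 bases is shorter than the 1201 bases used by the authors, so its level is uncertain. The 13 HIST genes together took 0.00626% ± 0.00121 of reads in dox and 0.00570% ± 0.00112 in no dox, and the 8 variant genes 0.128% ± 0.014 in dox and 0.135% ± 0.002 in no dox (SD, n = 3 each). Libraries of the 2 groups overlapped in both shares.

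**Figure D4:**
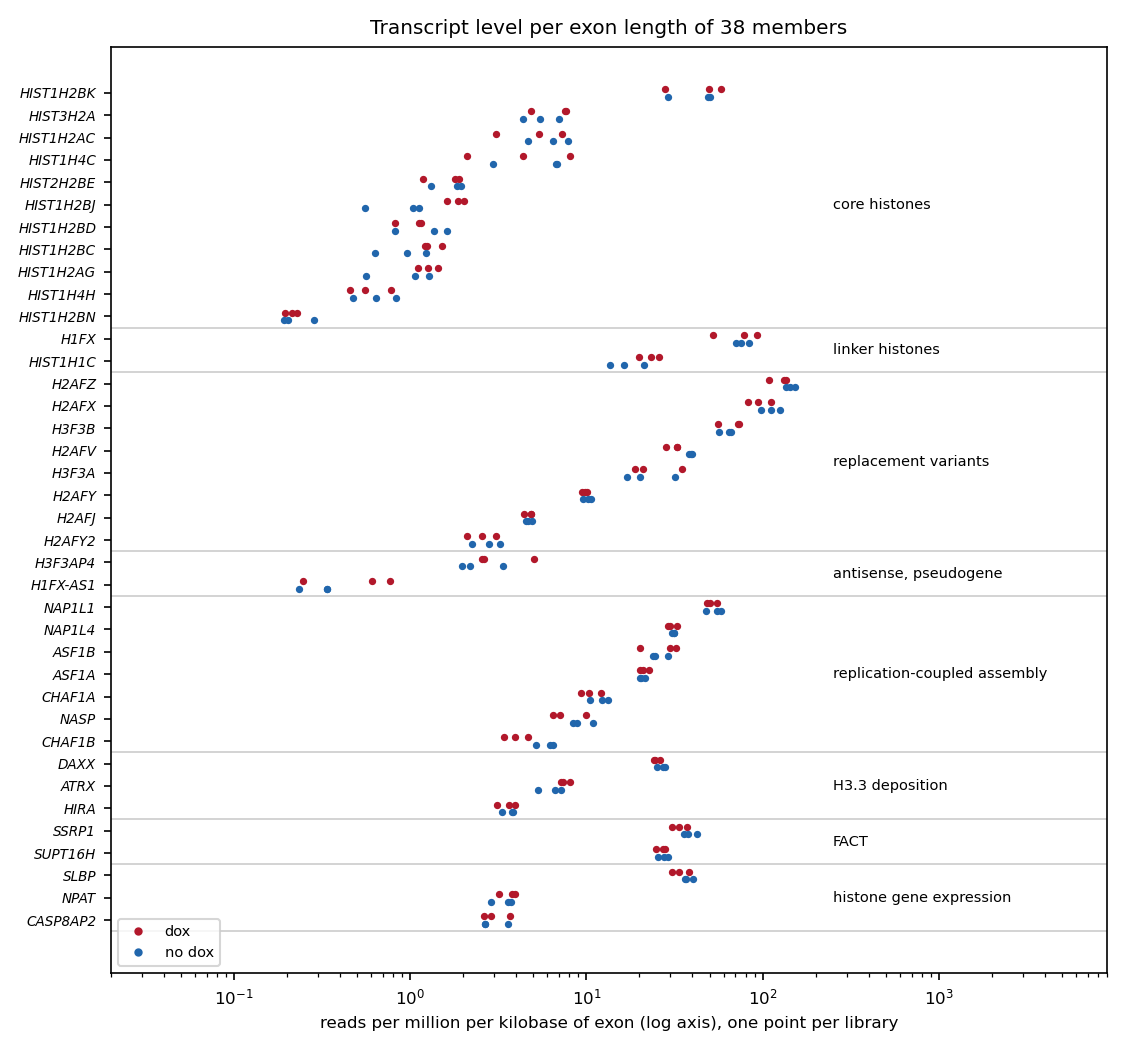
CPM per kilobase of exon (log axis) of the 38 members with an annotated length, one point per library, dox above no dox for each gene. Variants and linker histones reach above most core histone genes.

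Around the family, 34 other histone chaperones and exchange factors had a median log2 change of -0.06, and 0 passed without the block. With it 3 were higher and 9 lower in dox, where 10.2% of all tested genes were higher and 12.4% lower. Those higher included NPM3 at 0.29 and ACTL6A at 0.18. The 9 lower ones included MCM2 at -0.55, which carries H3-H4 at the fork, MMS22L at -0.54 and RBBP7 at -0.36. HJURP, the CENP-A chaperone, was at -0.35 and ANP32E, which removes H2A.Z, at -0.26. Of 24 genes of histone mRNA 3′ processing and decay, 0 passed with or without the block, and their median was 0.02. Of 25 DNA replication genes, whose S-phase expression parallels that of core histones, 1 passed without the block, CLSPN (log2 change -0.71, adjusted p 0.0449). With the block 18 of the 25 were lower and 0 higher, where 12.4% of all tested genes were lower and 10.2% higher. Of the 13 HIST genes, 1 was lower and 2 were higher with the block. The median of the 25 replication genes was -0.45, against 0.03 for the HIST genes. Poly(A) selection passes over mRNAs that end at the stem-loop, so the HIST values need not reflect the S-phase histone mRNAs. A difference between these lists was not tested.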

How the data were processed

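Polyadenylated RNA was sequenced in 3 dox and 3 no dox libraries, grouped by their titles. Tools named by the submitters' processing notes are bcl2fastq, Trimmomatic, TopHat and edgeR, with the build hg19 and no versions or roles. Nothing in the sources used here states how multi-mapping reads or strand were treated. The authors deposited normalised counts (a depth-equalised signal of unstated formula) and FPKM values. The authors' deposited comparison table holds CPM per library, a log2 fold change, a likelihood ratio score and a p-value with its adjusted value, per the file headers. Each CPM value was a whole multiple of 1 read within a tolerance of 0.01 (100% of values per library), which gave back whole reads.

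Differences were tested with limma 3.58.1 (R 4.3.3), with a trend and 2-sided, on log2(normalised count + 1), without a replicate block. A gene was tested if 3 or more libraries had 10 or more normalised counts (13153 of 13161), with Benjamini-Hochberg adjustment over all of these. The log2(value + 1) scale understates changes of low genes. Because the normalised counts are not whole, edgeR 4.0.16 and DESeq2 1.42.0 were run on the recovered reads as alternatives. Replicate numbers came from the titles, which do not say what they share. Correlations of the deviations from group means between libraries of the same number were 0.745, 0.726 and 0.768, so the block was taken to pair them. Members and lists were chosen with earlier results of these data known. Genes were named that passed with or without the block, plus the 2 with the highest FPKM and the 2 with the smallest p in each role; other members are given briefly. The fits were tested on simulated data. Gene models and transcripts came from GENCODE release 29 and promoters from RefSeq GRCh38.p14. The authors' FPKM length exceeded the genomic span for 2131 genes (16.4%), so levels between genes used exon lengths instead. Python 3.11.15 was used.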

Additional observations from a re-analysis of the deposited data

How the results depend on the processing

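Over all tested genes 71 were called; FPKM gave 31, DESeq2 522, the replicate block 2965 and edgeR with the block 3047. Leaving out 1 library gave 3 to 21 calls, and leaving out 1 replicate pair under the block gave 1414 to 3835 (3835, 1414 and 1779 without replicate 1, 2 and 3). The 0 members called became 10 with the replicate block, 12 by edgeR with the block and 2 by DESeq2, and remained 0 when any 1 library was left out. Under the block, leaving out replicate 1, 2 or 3 gave 15, 6 and 9 called members, of which 10, 4 and 8 were among the 10; CHAF1B, H2AFV, NASP and HIST1H1C passed each time. Of 458 values for 22 named members over 21 settings, 11 changed sign, in 5 members. ASF1A ranged over -0.0062 to 0.048 with 1 library left out and was -0.0010 under the block without replicate 2. H1FX ranged over -0.25 to 0.12 and was 0.072 under the block without replicate 1. HIST1H2AC ranged over -0.66 to 0.024, HIST1H2BK over -0.25 to 0.38 (-0.074 under the block without replicate 1) and NPAT over -0.032 to 0.16. With 1 library left out, other named members that moved by over 1.5 times without a change of sign included ATRX (0.10 to 0.29), H2AFZ (-0.28 to -0.14), H2AFX (-0.33 to -0.15), NASP (-0.46 to -0.19), SLBP (-0.23 to -0.11), HIST1H1C (0.24 to 0.59), H1FX-AS1 (0.28 to 1.13) and H3F3AP4 (0.044 to 0.61). The cause of these was not tested. With 8 to 924 reads per library, depth limits what can be said of the HIST genes.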

Other observations

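Of 120 histone gene IDs in GENCODE 29, 59 were absent from the comparison table but had FPKM values. IDs without an FPKM value were not examined. Of the 59, 25 were at 0 in all 6 libraries. The 59 included 26 coding genes, 8 of them at 0. The highest mean was 0.811 FPKM, for HIST1H2AI, an H2A gene at 0.813, 0.491 and 1.80 FPKM in dox and at 0.602, 0.292 and 0.873 FPKM in no dox. HIST2H2AC, another H2A gene, was at 0.494, 1.15 and 1.00 FPKM in dox and at 0.585, 0.780 and 0.455 FPKM in no dox. In both genes the groups overlapped. The H1.4 gene HIST1H1E was at 0.427, 0.485 and 0.203 FPKM in dox and at 0.407, 0.355 and 0.422 FPKM in no dox, and these values were not tested.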
